A study of Homo sapiens with 2 samples.

Results

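Oxidative phosphorylation genes were analyzed in HCT116, a human colon cancer cell line, by single-cell RNA-sequencing (scRNA-seq). The genes were chosen by name: symbols starting with MT-, ATP5 or UQCR, symbols of the NDUFA, NDUFB, NDUFC, NDUFS and NDUFV series, the COX subunit series 4 to 8, and SDHA to SDHD. They numbered 105 of the 33538 genes counted, of which 13 are encoded by the mitochondrial genome (MT-coded) and 92 by nuclear chromosomes. Among the 92, 87 were counted as subunits of a complex, and 5 were not: the inhibitor ATP5IF1, the antisense genes NDUFB2-AS1 and NDUFV2-AS1, and the read-through genes NDUFC2-KCTD14 and ATP5MF-PTCD1. NDUFA4 and its paralog NDUFA4L2 were counted with complex IV.

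The study treated HCT116 cells with decitabine (DAC), an inhibitor of DNA methyltransferases, and compared expression cell by cell with mock-treated cells. The DAC-treated group had 2 doses of 0.5 μM, on days 1 and 3, the drug was withdrawn on day 5, and collection followed on day 7. Mock-treated HCT116 cells were the other group. Each condition had 1 library from a 10x Genomics 3′ kit, which counts unique molecular identifiers (UMIs, tags that mark the RNA molecules captured), so there were no replicates, no test was possible between the conditions, and intervals cover counting error only.

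Cells with 10000 or more UMIs and 50% or less MT- UMIs were kept: 1298 of 1783 mock-treated cells (47098139 UMIs, median 32296.5 per cell) and 1120 of 1751 DAC-treated cells (54447636 UMIs, median 47060.5 per cell). Too few UMIs excluded 395 cells of the mock-treated library and 458 of the DAC-treated library, and a higher MT- share excluded a further 90 and 173. Between 40% and 50% MT- UMIs, just inside the limit, lay 6 mock-treated and 28 DAC-treated cells, and between 50% and 60%, just outside it, lay 18 and 36. The 2 libraries shared 12 cell barcodes. Keratin genes that mark epithelial cells were abundant in both libraries (KRT18, 99746 UMIs in mock-treated and 246669 in DAC-treated cells), as were EPCAM transcripts (16851 and 12400 UMIs). Fewer UMIs were found for the epithelial markers CDH1 (1084 and 1098), CLDN3 (1711 and 917), and CLDN4 (4148 and 1515). Of 9 markers of blood, stroma, and endothelium, COL1A1 had 496 and 943 UMIs, and the other 8 had at most 10 UMIs in the mock-treated and 59 in the DAC-treated library, where PTPRC had 0 and 16.

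Oxidative phosphorylation makes ATP in the inner mitochondrial membrane. Complexes I (NADH dehydrogenase) and II (succinate dehydrogenase) pass electrons to coenzyme Q, complex III (the cytochrome bc1 complex) passes them on to cytochrome c, complex IV (cytochrome c oxidase) reduces oxygen, and the proton gradient built by complexes I, III, and IV drives complex V (ATP synthase). The mitochondrial genome encodes core subunits of complexes I, III, IV, and V in long polycistronic transcripts, and these complexes combine products of both genomes, while all subunits of complex II are nuclear-coded.

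The MT-coded and the nuclear-coded genes, each summed, differed little in level between the conditions. MT-coded genes took 17.3% of the UMIs of kept mock-treated cells and 19.0% of those of DAC-treated cells, a log2 ratio of CPM (the UMIs of a gene over the total UMIs of the kept cells, scaled to a common total; DAC over mock) of 0.14 (95% interval, 0.13 to 0.14). The 87 nuclear-coded subunits took 1.69% and 2.01%, a log2 ratio of 0.25 (0.24 to 0.25). These ratios need to be read against all genes: among the 12002 genes with 200 or more UMIs over both libraries (tested genes), the median log2 ratio was 0.22, and the cytosolic ribosomal protein genes took 24.9% of the UMIs in mock-treated and 16.4% in DAC-treated cells. Relative to that median, the MT-coded sum was -0.08 and the nuclear-coded sum 0.03 on the log2 scale. The sign of the MT-coded sum depended on the scaling, at -0.08 with median-of-ratios scaling. It was -0.10 in cells with 20% or less MT- UMIs, but this limit selects on the MT- share itself and left out 20.6% of kept mock-treated and 37.7% of kept DAC-treated cells, so this value does not bear on the direction.

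The difference between the MT-coded and nuclear-coded genes of each complex does not depend on the denominator, and its direction was not the same for all complexes. In complex I, the 7 MT-coded genes had a log2 ratio of 0.55 and the 36 nuclear-coded subunits one of 0.33, and the nuclear-coded minus the MT-coded log2 ratio was -0.23 (-0.24 to -0.22). MT-coded UMIs per nuclear-coded UMI of complex I numbered 8.95 in the mock-treated and 10.5 in the DAC-treated library. Complex IV went the other way, with a log2 ratio of -0.10 for its 3 MT-coded genes and 0.23 for its 19 nuclear-coded subunits, a difference of 0.33 (0.32 to 0.34). The MT-coded UMIs per nuclear-coded UMI of complex IV were 23.7 in mock-treated and 18.9 in DAC-treated cells. Complex V, with 0.15 for the MT-coded and 0.27 for the nuclear-coded genes, had a difference of 0.12 (0.11 to 0.13). Complex III, with 0.15 and 0.07, had a difference of -0.08 (-0.09 to -0.07). In cells with 20% or less MT- UMIs, a limit on the MT- share that enters these differences, all 4 moved in the same direction, to -0.05, 0.26, 0.575, and 0.39 for complexes I, III, IV, and V. In all deposited cells, the difference of complex V was 0.06. Complex II, with no MT-coded subunit, had a log2 ratio of -0.0046 (-0.039 to 0.030), below the median of all genes.

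**Figure D1:**
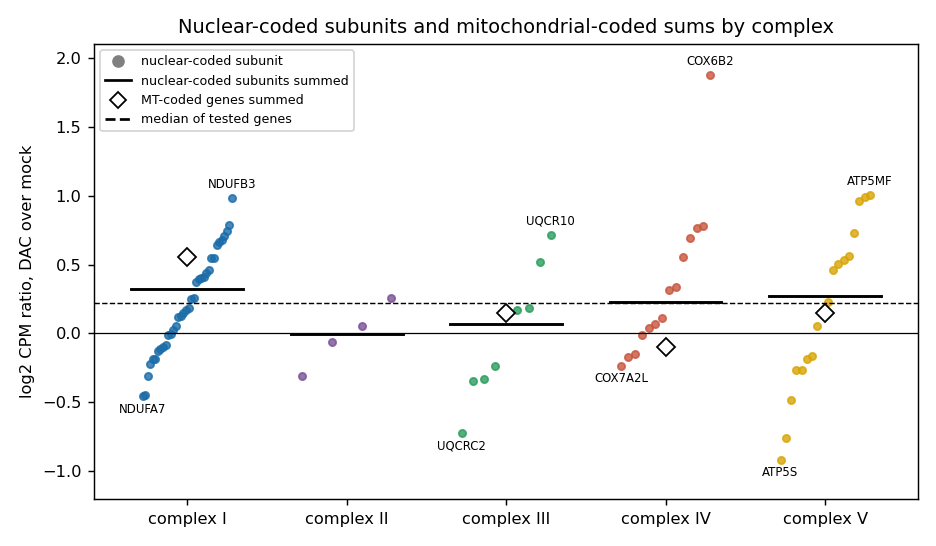
Log2 CPM ratio (DAC over mock, vertical axis) of each tested nuclear-coded subunit by complex, with the sum of the nuclear-coded subunits (black bar), the sum of the MT-coded genes (open diamond), and the median of all tested genes (dashed line, 0.22). COX8C at 6.20 lies above the range drawn, and COX7A1 and COX7B2, with 0 UMIs in mock-treated cells, have no ratio. The diamond lies above the bar in complexes I and III and below it in complexes IV and V.

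The MT-coded genes of complex I and those of complex IV parted. The 7 MT-ND genes encode membrane-arm subunits of complex I, and all 7 were above the median of all genes. In cells with 20% or less MT- UMIs, a limit on the MT- share itself, 6 of the 7 were, with MT-ND4 at 0.03 against a median of 0.23 and MT-ND5 at 0.45. MT-ND2 had 4766 CPM in mock-treated and 9667 CPM in DAC-treated cells, a log2 ratio of 1.02 (1.01 to 1.03). MT-ND1 had 8760 and 14283 CPM (0.71). MT-ND3 had 8473 and 12994 CPM (0.62), and MT-ND5 had 1594 and 2690 CPM (0.76). MT-ND6, the only MT-coded protein gene on the other strand, had 361 and 596 CPM (0.72). At the extremes of the MT-ND genes, MT-ND4L had 293 and 759 CPM (1.37), while its neighbor MT-ND4, which shares 7 bases with it, had 19244 and 22798 CPM (0.24).

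The MT-CO genes encode the catalytic core of complex IV, and none of the 3 exceeded the median of all genes. MT-CO1 had 28356 CPM in mock-treated and 24802 CPM in DAC-treated cells, a log2 ratio of -0.19. MT-CO3 had 39137 and 33238 CPM (-0.24), and MT-CO2 had 32209 and 35219 CPM (0.13). MT-CYB, the cytochrome b of complex III, had 15945 and 17682 CPM (0.15). The complex V genes MT-ATP6 and MT-ATP8 overlap by 46 bases and had log2 ratios of 0.14 (13516 and 14937 CPM) and 0.91 (99.6 and 187 CPM). Reads from overlapping genes on 1 strand cannot be split with certainty, which applies to MT-ATP8 and MT-ND4L, whose annotated lengths are 207 and 297 bases. The ratios of MT-CO2, MT-CYB, and MT-ATP6 changed sign under 3 of 11 alternative choices of cells, weights, or scaling, and no MT-coded gene with a log2 ratio past 0.32 did.

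**Figure D2:**
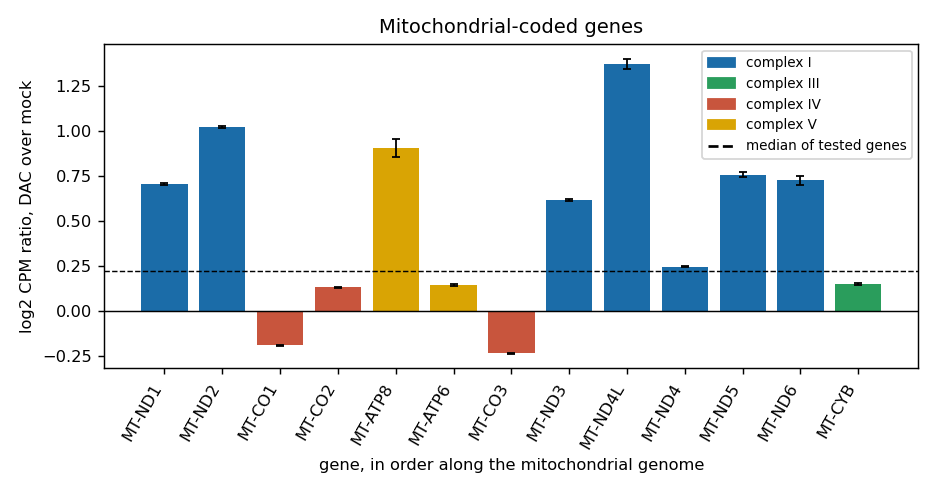
Log2 CPM ratio (DAC over mock) of the 13 MT-coded genes in their order along the mitochondrial genome, colored by complex, with 95% counting intervals and the median of all tested genes (dashed). All 7 MT-ND genes lie at 0.24 or above, and MT-CO1 and MT-CO3 lie below 0.

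Shares within the mitochondrial UMIs of each cell, which do not depend on nuclear genes, also differed between the libraries. MT-CO3 made up 22.7% of the MT- UMIs of mock-treated cells and 17.5% of those of DAC-treated cells, and 855 (76.3%) of the 1120 DAC-treated cells lay below the 5th percentile of mock-treated cells. MT-CO1 made up 16.4% and 13.1%, with 634 (56.6%) DAC-treated cells below that percentile. MT-ND2 made up 2.76% and 5.09%, and 886 (79.1%) DAC-treated cells lay above the 95th percentile of mock-treated cells. MT-ND1 had 744 (66.4%) and MT-ND3 652 (58.2%) DAC-treated cells above it. The other MT-ND genes had fewer such cells, with 575 (51.3%) for MT-ND4L, 366 (32.7%) for MT-ND5, 271 (24.2%) for MT-ND6, and 268 (23.9%) for MT-ND4. For MT-ND6, 88 (7.86%) DAC-treated cells lay below the 5th percentile. The shares of MT-CYB (9.23% and 9.31%), MT-ATP6 (7.82% and 7.87%), and MT-CO2 (18.6% in both) were close in both libraries when summed, while single cells spread more widely in the DAC-treated library. For MT-CO2, 250 (22.3%) DAC-treated cells lay below the 5th and 151 (13.5%) above the 95th percentile of mock-treated cells. For MT-ATP6 these were 145 (12.9%) and 155 (13.8%) cells, and for MT-CYB 136 (12.1%) and 114 (10.2%).

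**Figure D3:**
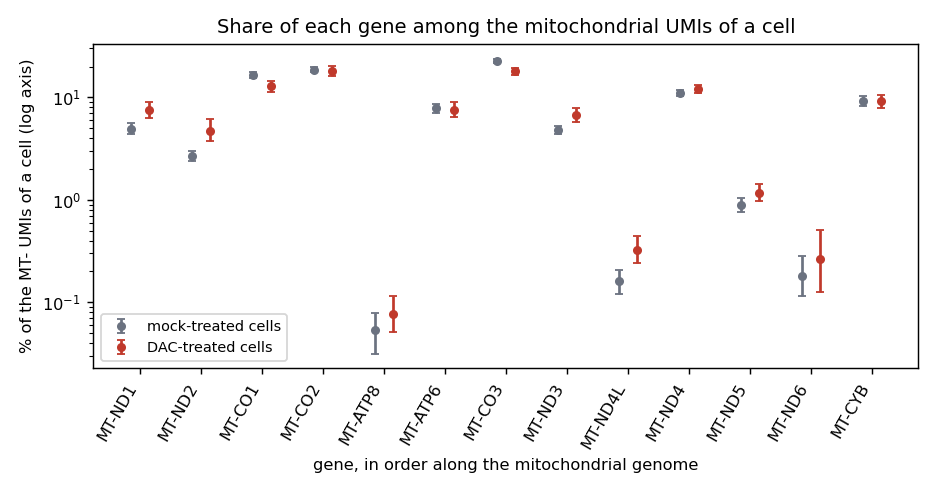
Share of each MT-coded gene among the MT- UMIs of a cell (percent, log axis), as the median over kept cells with the interquartile range as bars, in mock-treated (gray) and DAC-treated (red) cells. The medians of MT-CO3 are 22.7% and 18.2%, those of MT-ND2 are 2.68% and 4.66%, and the interquartile ranges of both genes do not overlap between the libraries.

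Summed over kept cells, the mock-treated library had 0.436 MT-ND UMIs per MT-CO UMI and the DAC-treated library 0.684, a log2 ratio of 0.65. Per cell, the median was 0.431 (5th to 95th percentile, 0.370 to 0.532) in mock-treated and 0.679 (0.450 to 1.32) in DAC-treated cells, and 922 (82.3%) DAC-treated cells lay above the 95th percentile of mock-treated cells. MT-ND UMIs outnumbered MT-CO UMIs in 6 mock-treated and 138 DAC-treated cells. The log2 ratio was between 0.54 and 0.70 within each of 5 ranges of UMIs per cell and between 0.58 and 0.78 within each of 4 ranges of the MT- share. Among the cells that the filter left out, the ratio of MT-ND to MT-CO UMIs was 0.397 in mock-treated and 0.742 in DAC-treated cells under 10000 UMIs, and 0.408 and 0.646 in cells over 50% MT- UMIs.

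The MT- share of the UMIs of a cell differed in spread more than in center. The MT- share had a median of 17.1% in mock-treated and 17.9% in DAC-treated cells, with interquartile ranges of 4.38 and 8.25 percentage points. Above the 95th percentile of mock-treated cells lay 239 (21.3%) DAC-treated cells, and below the 5th percentile lay 112 (10.0%). Cells with under 1% MT- UMIs made up 0.625% of DAC-treated cells and 0% of mock-treated cells. Over 20% MT- UMIs were found in 268 (20.6%) mock-treated and 422 (37.7%) DAC-treated cells.

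The nuclear-coded subunits took a median of 2.03% of the non-MT- UMIs of mock-treated cells and 2.43% of those of DAC-treated cells, and 457 (40.8%) DAC-treated cells exceeded the 95th percentile of mock-treated cells. The ribosomal protein share of the same UMIs had medians of 30.8% and 20.05%, and its part in the higher nuclear-coded share was not tested. Across cells of a library, the MT- share and the nuclear-coded share of non-MT- UMIs had Spearman's rho of 0.14 (Pearson's r, 0.04) over 1298 mock-treated cells and 0.18 (Pearson's r, 0.03) over 1120 DAC-treated cells, each pair of values coming from 1 cell with 1 depth. Depth also moved with the difference between both genomes. Nuclear-coded minus MT-coded, the log2 ratio was -0.50 in cells with 10000 to 20000 UMIs (110 mock-treated and 50 DAC-treated cells), -0.04 in those with 20000 to 30000, and between 0.05 and 0.10 in the 3 ranges above.

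**Figure D4:**
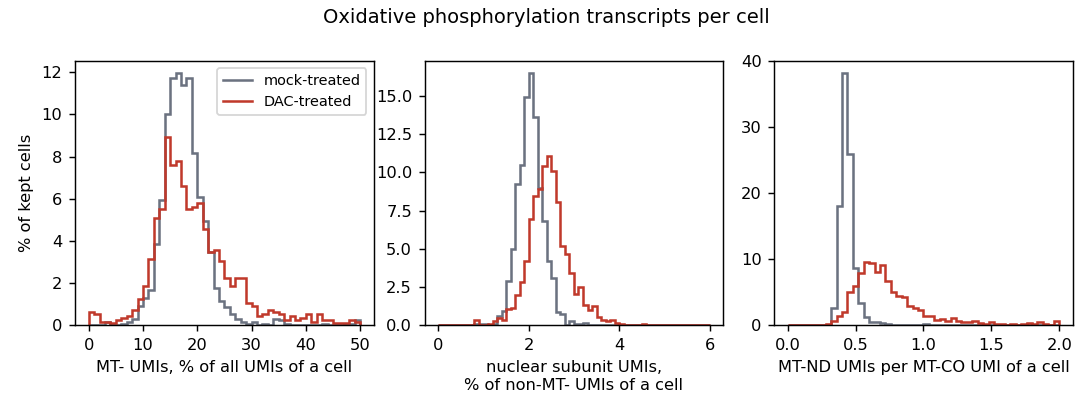
Distributions over kept cells (percent of the cells of a library, vertical axis) of the MT- share, the nuclear-coded subunit share of non-MT- UMIs, and MT-ND UMIs per MT-CO UMI, in mock-treated (gray) and DAC-treated (red) cells. Cells with more than 2 MT-ND UMIs per MT-CO UMI are drawn in the last bin. The MT- shares center at 17.1% and 17.9%, while 82.3% of DAC-treated cells lie above the 95th percentile of mock-treated cells for MT-ND UMIs per MT-CO UMI.

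Among the 105 genes, 99 passed the minimum of 200 UMIs. Of the 84 nuclear-coded subunits that passed, 34 (40.5%) were higher in DAC-treated cells by more than 0.32 on the log2 scale, the limit used for all counts here, 8 (9.52%) were lower by more than this, and 42 lay within it. Among all tested genes, 43.8% were higher and 22.2% lower past this limit, so the share of higher subunits was near that of genes in general. Past 2-fold, 5 subunits were higher and 0 lower, against 13.5% and 6.49% of all tested genes. With median-of-ratios scaling, 23 subunits were higher and 23 lower past the limit, against 31.7% and 31.8% of all tested genes under that scaling. Of the 13 MT-coded genes, 7 were higher and 0 lower past the limit, and MT-ND2 and MT-ND4L were past 2-fold. With median-of-ratios scaling, 2 were lower past it, MT-CO1 (-0.41) and MT-CO3 (-0.45). The same 2 were lower past it without MT- and ribosomal protein UMIs in the denominator (-0.35 and -0.40). They were also lower in cells with 20% or less MT- UMIs (-0.46 and -0.44). Under these settings, 31.8%, 29.2%, and 22.1% of all tested genes were lower. MT-ND2 fell short of 2-fold with median-of-ratios scaling (0.81), without MT- and ribosomal protein UMIs in the denominator (0.86), and in cells with 20% or less MT- UMIs (0.90). ATP5MF, the fifth of the subunits past 2-fold, was between 0.79 and 1.07 under the alternatives and fell short of it under 6 of the 11. COX7A1, COX7B2, COX8C, and COX6B2 reached 200 UMIs only through the DAC-treated library, so that their place among the 5 past 2-fold and among the 34 higher follows in part from the minimum. Without them, 30 of 80 (37.5%) subunits were higher and 8 lower past the limit, against 43.8% and 22.2% of all tested genes.

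In complex I, the 36 nuclear-coded subunits divide into 7 core subunits, which carry the flavin and iron-sulfur clusters, and 29 accessory subunits. Core subunits summed had a log2 ratio of 0.04 (0.02 to 0.06), and 1 of 7 was higher past the limit and 0 lower. Accessory subunits summed had 0.38 (0.37 to 0.39), and 14 of 29 (48.3%, against 43.8% of all tested genes) were higher and 2 lower. The medians were 0.02 for core and 0.26 for accessory subunits, against 0.22 for all tested genes. The highest 3 were all accessory subunits of the membrane arm: NDUFB3 had 63.7 CPM in mock-treated and 126 CPM in DAC-treated cells (0.98), NDUFB9 had 281 and 483 CPM (0.78), and NDUFB8 had 154 and 257 CPM (0.75). Among the lowest was NDUFS4, an accessory subunit known from inherited complex I deficiency, with 131 and 96.1 CPM (-0.45). NDUFA7 had 280 and 236 UMIs, a log2 ratio of -0.46 with a wide interval (-0.71 to -0.20), and its exons overlap those of another gene on the same strand, as do those of NDUFB8, SDHD, ATP5PO, COX6A1, COX6B2, and COX8A, which makes their counts less certain.

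In complex II, SDHA, the flavoprotein that oxidizes succinate, had 43.97 CPM in mock-treated and 52.5 CPM in DAC-treated cells, a log2 ratio of 0.26 (0.17 to 0.34). SDHB, the iron-sulfur subunit, had 90.9 and 94.2 CPM (0.05). The membrane anchors SDHC and SDHD had 84.2 and 80.8 CPM (-0.06) and 48.7 and 39.4 CPM (-0.31). The values of SDHB and SDHC changed sign under 2 and 1 of the 11 alternatives, respectively. With the main choices, all 4 genes were within the limit of 0.32. Under the alternatives, SDHA was between 0.04 and 0.42 and SDHD between -0.52 and -0.20, so both passed the limit under some of them.

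In complex III, the core proteins were lower and small subunits were both higher and lower. UQCRC2 and UQCRC1, the matrix-facing core proteins, had 111 CPM in mock-treated and 67.2 CPM in DAC-treated cells (-0.72) and 168 and 134 CPM (-0.33), a log2 ratio of -0.47 (-0.51 to -0.44) for their sum. UQCRFS1, the Rieske iron-sulfur protein, had 142 and 160 CPM (0.17, changing sign under 1 alternative). UQCR10 had 187 and 306 CPM (0.71) and UQCRQ had 253 and 362 CPM (0.52), while UQCRB had 520 and 409 CPM (-0.35). UQCRH, the hinge protein, had 705 and 792 CPM (0.17), and its copy UQCRHL had 15.9 and 18.1 CPM (0.19), and both changed sign under 1 alternative. UQCRHL took 2.20% of the UMIs of the pair in mock-treated and 2.23% in DAC-treated cells, and reads of near-identical copies cannot be assigned with certainty.

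In complex V, subunits of different parts of the enzyme differed. The 5 subunits of the catalytic F1 head summed had a log2 ratio of 0.08 (0.07 to 0.10), but their median was -0.16, since ATP5F1E was at 0.51 and the other 4 were between -0.26 and 0.05. The sum and the median of the F1 head thus differ in sign. The 4 of the peripheral stalk summed had 0.01 (-0.01 to 0.03), with a median of -0.05. The 5 supernumerary membrane subunits summed had 0.66 (0.65 to 0.68), with 4 of the 5 higher past the limit and 0 lower, against 43.8% and 22.2% of all tested genes. The highest among them were ATP5MF, with 138 CPM in mock-treated and 276 CPM in DAC-treated cells (1.00), and ATP5MD, with 304 and 592 CPM (0.96). ATP5MF was just past 2-fold, at a ratio of 2.003, and its exons overlap those of the read-through gene with PTCD1, which had 6 and 1 UMIs. ATP5PO, of the peripheral stalk, had 273 and 196 CPM (-0.48). ATP5S, named as a coupling factor of the enzyme and counted here with the subunits by its symbol, had 17.2 and 9.15 CPM (-0.91).

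The c-ring, the rotor of ATP synthase, is built from copies of 1 mature protein that ATP5MC1, ATP5MC2, and ATP5MC3 all encode. ATP5MC1 had 220 CPM in mock-treated and 437 CPM in DAC-treated cells (0.99), and ATP5MC3 had 380 and 629 CPM (0.73). ATP5MC2 went the other way, with 360 and 213 CPM (-0.76). Of the c-ring UMIs, ATP5MC1 took 22.9% in mock-treated and 34.2% in DAC-treated cells, ATP5MC3 took 39.5% and 49.2%, and ATP5MC2 took 37.5% and 16.6%. The 3 genes summed had a log2 ratio of 0.41 (0.40 to 0.43).

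In complex IV, 9 of 17 tested nuclear-coded subunits were higher past the limit and 0 were lower, against 43.8% and 22.2% of all tested genes. Of these 9, 4 were restricted forms with 0 to 43 UMIs in the mock-treated library (COX7A1, COX7B2, COX8C, and COX6B2), which passed the minimum of 200 UMIs through the DAC-treated library. Without them, 5 of 13 (38.5%) were higher, against 43.8% of all tested genes, and the median was 0.12, against 0.22. The lowest 3 were COX7A2L, a factor of respiratory supercomplexes, with 163 CPM in mock-treated and 139 CPM in DAC-treated cells (-0.24), COX7C with 468 and 416 CPM (-0.17), and COX5B with 383 and 345 CPM (-0.15). With median-of-ratios scaling, these 3 were lower past the limit (-0.45, -0.38, and -0.36), as were 31.8% of all tested genes. Several complex IV subunits exist as a common form and a tissue-restricted form, and the restricted forms accounted for all 4 complex IV subunits past 2-fold.

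Restricted forms of COX7A, COX7B, and COX8 had 0 to 20 UMIs in the mock-treated library and were detected in a part of the DAC-treated cells. COX7A1, the form of heart and skeletal muscle (chr19:36150922-36152449, minus strand, hg38), had 0 UMIs after mock treatment and 680 after DAC treatment, a ratio of at least 196 against a limit of 3 UMIs in the mock-treated library. It was detected in 0 of 1298 mock-treated cells, where a limit of 3 cells is a share of 0.231% and the upper Clopper-Pearson limit is 0.284%. Of the 1120 DAC-treated cells, 281 (25.1%, with a 95% Clopper-Pearson interval of 22.6 to 27.7%) had a UMI. COX7B2, a testis form (chr4:46734827-46909245, minus strand), had 0 and 519 UMIs, a ratio of at least 149.6, and was detected in 203 (18.1%; 15.9 to 20.5%) DAC-treated cells. COX8C, another testis form (chr14:93347182-93348356, plus strand), had 20 and 1701 UMIs, a log2 ratio of 6.20 (5.57 to 6.92), and was detected in 20 (1.54%) mock-treated and 596 (53.2%; 50.2 to 56.2%) DAC-treated cells.

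The number of UMIs per cell stayed low. UMI counts of 3 or more were found in 79 DAC-treated cells for COX7A1, in 82 for COX7B2, and in 256 for COX8C, with highest values of 19, 13, and 16 UMIs in a cell. After each cell was thinned to 10000 UMIs, the shares of DAC-treated cells with a UMI were 9.91%, 6.07%, and 22.8%, and COX8C was left in 0.308% of mock-treated cells. By depth, the share of DAC-treated cells with COX8C was 40.6%, 51.2%, and 67.8% when cells were split into equal groups with few, intermediate, and many UMIs. The DAC-treated library held 1 cell line and no cell type that should lack these genes, so the part of free RNA in these shares was not tested.

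At least 1 of COX7A1, COX7B2, and COX8C was detected in 765 (68.3%) DAC-treated cells, at least 2 in 277 (24.7%), and all 3 in 38 (3.39%), whereas 20 (1.54%) mock-treated cells had any. COX8C was shared with COX7A1 in 159 and with COX7B2 in 133 cells, and COX7A1 with COX7B2 in 61 cells. The common forms were detected in nearly all cells of both libraries, with COX8A in 99.1% of mock-treated and 99.3% of DAC-treated cells, COX7A2 in 99.7% and 99.8%, and COX7B in 96.8% and 98.8%.

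Restricted forms remained the smaller part of each pair. COX8C took 0.148% of the UMIs of COX8C and COX8A in mock-treated cells and 9.90% (9.46 to 10.4%) in DAC-treated cells, and COX8A had 286 and 284 CPM. COX7B2 took 0% and 4.39%, and its partner COX7B had 141 and 208 CPM (0.56). COX7A1 took 0% and 2.30%, and COX7A2 had 328 and 530 CPM (0.69). COX6B2, a sperm form (chr19:55349306-55354719, minus strand), had 43 and 182 UMIs, a log2 ratio of 1.87 (1.39 to 2.39), and was detected in 3.00% of mock-treated and 13.6% of DAC-treated cells, or 1.08% and 2.68% after thinning. It took 0.427% and 0.915% of the UMIs of its pair, in which COX6B1 had 213 and 362 CPM (0.77).

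COX4I2, a form of lung (chr20:31637912-31645006, plus strand), had 0 and 54 UMIs, a ratio of at least 15.6, in 48 (4.29%) DAC-treated cells, and COX4I1 had 847 and 886 CPM (0.07, changing sign under 2 alternatives). COX6A2, of heart and skeletal muscle, had 0 and 1 UMIs, and COX6A1 had 391.7 and 402.8 CPM (0.04, changing sign under 2 alternatives). NDUFA4L2, known as a hypoxia-induced gene, had 121 and 177 UMIs (0.34, with an interval of -0.0021 to 0.69), and NDUFA4 had 303 and 519 CPM (0.78). Under the alternatives, NDUFA4L2 was between 0.13 and 0.86. ATP5MGL, an intronless copy, had 64 and 74 UMIs, both at 1.36 CPM, and ATP5MG had 294 and 345 CPM (0.23).

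**Figure D5:**
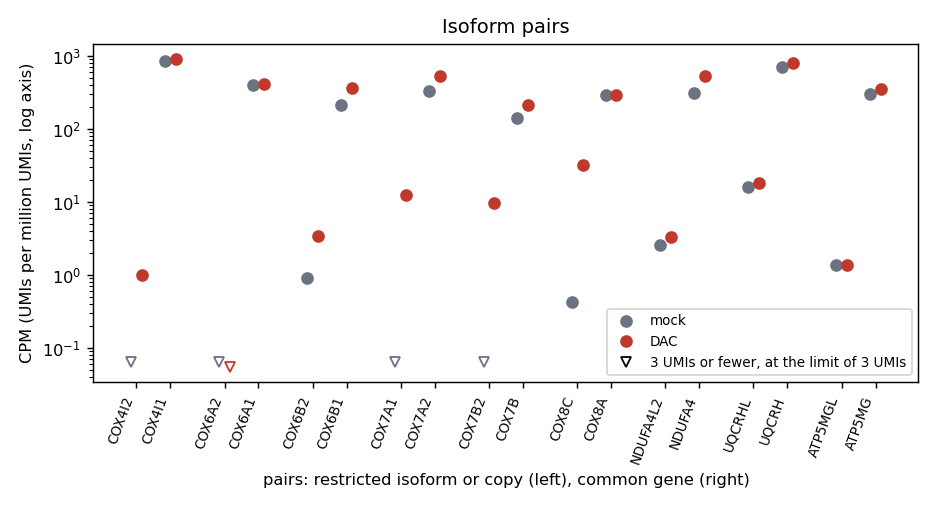
CPM (log axis) of each restricted form or copy (left of a pair) and its common gene (right), in mock-treated (gray) and DAC-treated (red) cells. Open triangles mark genes with 3 UMIs or fewer and are drawn at the level of 3 UMIs. COX7A1, COX7B2, and COX8C reach 12.5, 9.53, and 31.2 CPM in DAC-treated cells, while their common genes lie above 100 CPM in both libraries.

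Promoters of COX7B2 and of the COX8 and COX6B pairs are shown because DAC acts on the methylation of CG dinucleotides. The 250 bases before the start site are shown 5′ to 3′ on the strand of the gene, from RefSeq (GRCh38.p14), with CG dinucleotides in capitals. COX7B2 lies at chr4:46909246-46909495 (minus strand), COX8C at chr14:93346932-93347181 (plus strand) with its partner COX8A at chr11:63974370-63974619 (plus strand), and COX6B2 at chr19:55354720-55354969 (minus strand) with its partner COX6B1 at chr19:35648073-35648322 (plus strand).
COX7B2: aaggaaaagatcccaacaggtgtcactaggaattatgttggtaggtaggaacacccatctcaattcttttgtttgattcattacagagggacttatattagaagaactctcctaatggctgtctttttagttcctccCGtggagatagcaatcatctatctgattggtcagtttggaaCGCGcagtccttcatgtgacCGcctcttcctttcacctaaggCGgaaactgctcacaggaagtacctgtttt
COX8C: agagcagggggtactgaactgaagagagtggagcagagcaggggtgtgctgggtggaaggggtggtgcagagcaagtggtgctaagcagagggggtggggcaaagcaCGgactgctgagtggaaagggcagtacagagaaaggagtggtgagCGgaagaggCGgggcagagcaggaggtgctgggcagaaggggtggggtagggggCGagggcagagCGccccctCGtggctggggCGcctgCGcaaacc
COX8A: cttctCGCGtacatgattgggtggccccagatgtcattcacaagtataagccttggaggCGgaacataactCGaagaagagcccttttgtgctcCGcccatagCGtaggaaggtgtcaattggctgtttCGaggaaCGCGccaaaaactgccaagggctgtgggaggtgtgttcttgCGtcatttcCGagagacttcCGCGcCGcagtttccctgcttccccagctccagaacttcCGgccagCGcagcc
COX6B2: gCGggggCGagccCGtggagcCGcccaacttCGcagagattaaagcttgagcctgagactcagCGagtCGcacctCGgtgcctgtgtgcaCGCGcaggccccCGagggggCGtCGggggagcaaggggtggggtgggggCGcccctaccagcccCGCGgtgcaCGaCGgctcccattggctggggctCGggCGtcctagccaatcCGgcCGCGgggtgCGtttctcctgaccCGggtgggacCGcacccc
COX6B1: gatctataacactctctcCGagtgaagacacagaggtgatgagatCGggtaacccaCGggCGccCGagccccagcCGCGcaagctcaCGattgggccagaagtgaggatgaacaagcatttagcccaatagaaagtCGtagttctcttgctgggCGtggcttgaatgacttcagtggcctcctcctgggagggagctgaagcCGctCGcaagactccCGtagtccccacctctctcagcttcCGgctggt

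The stretch before COX7B2 held 5 CG dinucleotides and that before COX8C held 8, against 16 before COX8A. The pair of COX6B2 and COX6B1 had the opposite order, with 26 and 14. The common form COX7B held 13, COX7A2 held 0, and COX6A2 and its partner COX6A1 held 1 and 19. COX7A1 and COX4I2 had no entry. Over all 35116 promoters of the same length, the median was 11 CG dinucleotides, and 65.66% held 5 or more. Promoters were found for 73 of the 92 nuclear-coded genes, and in the 68 that were not restricted forms or copies the median was 19.5, with a range of 0 to 36. Each CG reads the same on both strands. These counts describe letters only, and methylation was not measured in these files.

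Subunit transcripts are short, and the ratio varied with length. Across the 84 tested nuclear-coded subunits, the log2 ratio and the transcript length in GENCODE 44 had Spearman's rho of -0.34, against -0.02 across the 11868 other tested nuclear genes with a length. Of the 24 subunits with transcripts under 600 bases, 15 were higher and 1 was lower past the limit, with a median log2 ratio of 0.50. COX7A1, COX7B2, and COX8C are among them and passed the minimum of 200 UMIs through the DAC-treated library. Without restricted forms and copies, rho was -0.31 across 78 subunits, and 12 of 20 under 600 bases were higher and 1 lower, with a median of 0.45. The 221 other genes of that length had a median of 0.13, with 95 higher and 73 lower. In the 3 longer ranges, the medians of the subunits were 0.12, -0.02, and 0.16, below those of the other genes of the same length, at 0.28, 0.18, and 0.23. Genes are not independent replicates, and these values describe 2 libraries.

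Genes that build or serve the complexes were grouped in lists. Past the limit, 43.8% of all tested genes were higher and 22.2% lower, with a median log2 ratio of 0.22. Of 48 tested assembly factors, 19 (39.6%) were higher and 7 (14.6%) lower, with a median of 0.17. COX17, a copper chaperone of complex IV, had 68.8 CPM in mock-treated and 145 CPM in DAC-treated cells (1.08), and NDUFAF8, an assembly factor of complex I, had 195 and 368 CPM (0.91). SDHAF4, which helps load SDHA, had 5.29 and 1.54 CPM (-1.78), and TTC19, of complex III, had 80.4 and 43.9 CPM (-0.87).

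Of 29 genes that copy and express mitochondrial DNA, 10 (34.5%) were higher and 4 (13.8%) lower, against 43.8% and 22.2% of all tested genes, with a median of 0.10. ELAC2, which cuts tRNAs out of mitochondrial transcripts, had 27.3 and 58.1 CPM (1.09), and POLG, the mitochondrial DNA polymerase, had 12.2 and 22.6 CPM (0.89). TFB1M, a methyltransferase of mitochondrial rRNA, had 34.9 and 19.8 CPM (-0.82), and POLG2, the accessory subunit of the polymerase, had 23.0 and 14.2 CPM (-0.70). Of 7 transcriptional regulators, 2 (28.6%) were higher and 0 lower (median 0.23), led by GABPB1 with 12.97 and 18.18 CPM (0.49) and YY1 with 130 and 174 CPM (0.41). NRF1 had 249 and 298 UMIs (0.05) and GABPA 508 and 567 UMIs (-0.05), with intervals across 0 and changes of sign under 2 alternatives and 1, respectively.

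Of 13 genes for cytochrome c and coenzyme Q, 2 (15.4%) were higher and 4 (30.8%) lower, against 43.8% and 22.2% of all tested genes (median -0.13). CYCS, the electron carrier cytochrome c, had 329 and 615 CPM (0.90), and PDSS1, of coenzyme Q synthesis, had 10.1 and 15.1 CPM (0.59), while COQ5 and COQ8A of the same pathway had 26.2 and 9.83 CPM (-1.42) and 14.5 and 9.29 CPM (-0.64). Of 13 genes of the tricarboxylic acid cycle, 3 (23.1%) were higher and 2 (15.4%) lower (median -0.03), from SUCLG2 (-1.23) and MDH2 (-0.41) to CS (0.65) and OGDH (0.83).

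The mitochondrial ribosome, which translates the MT-coded genes, and the cytosolic ribosome, which translates the nuclear-coded subunits, had medians of 0.27 and -0.59, against 0.22 for all tested genes. Of 76 mitochondrial ribosomal protein genes, 31 (40.8%) were higher and 9 lower, against 43.8% and 22.2% of all tested genes, from MRPS10 (-0.86) and MRPL45 (-0.63) to MRPL36 (1.24) and MRPL27 (1.30). Of 85 cytosolic ribosomal protein genes, 4 (4.71%) were higher and 66 (77.6%) lower, and RPL3 (-1.26) and RPL31 (-1.11) were the lowest. The highest were the germ cell paralogs RPL10L, with 6 UMIs in mock-treated and 571 in DAC-treated cells (6.36), and RPL39L, with 24 and 1518 UMIs (5.77), and both passed the minimum of 200 UMIs through the DAC-treated library. Without them, 2 of 83 were higher and 66 lower, with the median still at -0.59.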

How the data were processed

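The authors prepared libraries using a Chromium Single Cell 3′ kit and, per the labels, used Cell Ranger with the hg38 build. The deposited values are raw UMI counts of each gene in each cell and were not normalized. Genes, lists, and cell limits were chosen with earlier results of these data known. UMI counts were summed over the kept cells of each library and divided by their total (CPM), and the ratio of CPM is given on the log2 scale. A gene was called tested at 200 or more UMIs over both libraries, and higher or lower past a log2 ratio of 0.32 or past 2-fold. Intervals are exact, at the 95% level (Poisson, Clopper-Pearson), except those of differences between log2 ratios (delta method). Against 0 mock-treated UMIs, the ratio used 3 counts. Cells of 1 library are not replicates, so no p-value is given. Doublets of 1 cell line carry no marker and were not called, and the 5% of cells with the most UMIs were left out instead in an alternative. Exon overlap in GENCODE 44 on the same strand was found for 24 of the 105 genes. Kinase and read-through names were left out of the cytosolic ribosome list.

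Named genes were all MT-coded and SDH genes, the 3 highest and 3 lowest tested nuclear-coded subunits of complexes I, III, IV, and V, every one past 2-fold, the isoform pairs, and the 2 highest and 2 lowest of each list. The result of 1 gene under this rule is not reported here. UQCRFS1, ATP5MC3, and ATP5F1E were added after their values were seen. Counts without restricted forms or germ cell paralogs were also added then. The ratio of MT-ND to MT-CO UMIs was also added after the data were seen. The ratio computation was tested on simulated data. Python 3.11.15, numpy 2.4.6, scipy 1.17.1, pandas 2.3.3, and matplotlib 3.10.9 were used.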

Additional observations from a re-analysis of the deposited data

Results flagged for a closer look

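Restricted subunit forms were also counted in the 631 DAC-treated cells that the filter on UMIs and MT- share left out, which the values of kept cells do not include. These cells held 8 UMIs of COX7A1, 18 of COX7B2, 42 of COX8C, and 59 of COX6B2 among 4598529 UMIs. The 485 mock-treated cells left out held 0, 0, 0, and 2 UMIs of these genes among 2813550 UMIs. The values of the DAC-treated cells left out are above those of the mock-treated cells treated the same way, and the part of free RNA in them was not tested. Kept DAC-treated cells held 680, 519, 1701, and 182 UMIs of these genes among 54447636 UMIs. COX6B2 thus took a larger share of the UMIs in the DAC-treated cells left out than in those kept, and the other genes a smaller one.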

How the results depend on the processing

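Each condition had 1 library, so no library could be left out. No paired analysis was possible because each condition had 1 library. No named gene past a log2 ratio of 0.32 (58 of 82 with a ratio) changed sign under the 11 alternatives. In cells with 20% or less MT- UMIs, which selects on the MT- share itself, log2 ratios were -0.096 (MT-coded sum), 0.258 (nuclear-coded sum), 0.121 (complex II), and 0.730 (MT-ND to MT-CO), and nuclear minus MT was 0.354 (all), -0.046 (I), 0.264 (III), 0.575 (IV), and 0.395 (V). In all deposited cells, the MT-coded sum was 0.162, the nuclear-coded sum 0.227, MT-ND to MT-CO 0.660, and nuclear minus MT 0.066 (all), -0.281 (I), -0.127 (III), 0.286 (IV), and 0.060 (V). After thinning to 10000 UMIs, these values were 0.133, 0.226, 0.659, 0.093, -0.243, -0.103, 0.317, and 0.093, and averaging CPM over cells gave 0.134, 0.230, 0.656, 0.096, -0.241, -0.107, 0.319, and 0.102. Without the 5% of cells with the most UMIs, the MT-coded sum was 0.132, the nuclear-coded sum 0.238, MT-ND to MT-CO 0.658, and nuclear minus MT 0.106 (all) and -0.095 (III). The MT-coded sum was 0.134 at 20000 or more UMIs and 0.134 without shared barcodes. Without MT- UMIs in the denominator, the MT-coded and nuclear-coded sums were 0.166 and 0.279. Median-of-ratios scaling gave -0.076 and 0.036, with complex II at -0.217 and 23 subunits lower past 0.32 (31.8% of all tested genes). A denominator without MT- and ribosomal protein UMIs, chosen after seeing the data, as were the alternatives for MT-ND to MT-CO, gave -0.025 and 0.088, with complex II at -0.165 and 20 subunits lower (29.2% of all tested genes). The cause of these shifts was not tested beyond the scaling itself, and genes with few UMIs, such as NDUFA7 and NDUFA4L2, have wide counting intervals.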
